A study of Mus musculus with 4 samples.

Results

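The genes described here are 9 genes in mouse CD4 T cells that received a vector carrying Sox12. The 9 are known from neurons or glia, are shared by nerve and immune cells, or, as Mex3a, are known from intestinal stem cells. Of them 8 (Cd24a, D0H4S114, Tmem98, Dbn1, Mex3a, Snn, Marcks and Marcksl1) were chosen because they were far higher with the Sox12 vector than with the mock vector. Gap43 was chosen as a contrast because it was lower. All 9 have a row among the 23259 named rows of the vector table, and 4 of the 9 (Cd24a, Mex3a, Snn and Marcksl1) have a row among the 10663 named rows of the table on colitis. Every gene listed for colitis had at least 1.00 FPKM in 1 or both of its libraries. The other 5 of the 9 have no value there. D0H4S114 is the older symbol of Nrep. The choice used the values of the vector experiment, so these are given as a description, without a test.

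RNA was sequenced from 4 libraries in 2 experiments, with 1 library per group. The Sox12 vector library and the mock vector library came from C57BL6 mice of wild-type genotype, whose naive CD4 T cells were purified and then transduced. The DSS library and the untreated library came from splenic regulatory T cells (Treg) of Balb/c mice, purified by the human CD2 that a Foxp3-hCD2 reporter places on Foxp3-expressing cells. The DSS mice drank 3% dextran sulfate sodium, a polymer that injures the colon lining, for 7 days. The labels give neither the ages of the mice, nor whether mice were pooled, nor the time between transduction and harvest. Every difference below is therefore between 2 libraries, with no replicate check.

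Sox12 belongs with Sox4 and Sox11 to the SoxC group of transcription factors, which bind DNA through an HMG box and share much of that domain. In the developing nervous system SoxC factors act in cells that leave the progenitor state, and they are known for turning on genes of early neurons such as Tubb3. Many such genes build the cell cortex and the growth cone, the actin-rich tip of a growing axon. T cells reshape the same cortical actin when they contact other cells.

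Values are FPKM, which scale the fragments of a gene to its transcript length and to the size of the library, so levels of different genes can be set side by side. A change is a difference of log2(FPKM + 1), Sox12 vector minus mock vector or DSS minus untreated, and a ratio is of the FPKM themselves. A change of 1 or more in size is called a difference of at least 2 times, and is read among the genes whose mean over both libraries is at least 1 FPKM.

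Sox12 itself had 829 FPKM in the library with the Sox12 vector, against 1.56 FPKM with the mock vector. Cells in both vector libraries carried T cell transcripts. All 8 listed T cell markers passed the filter, and Cd3e, a chain of the T cell receptor complex, had 214 FPKM with the Sox12 vector and 259 FPKM with the mock vector. Of the 8 markers 1 was at least 2 times higher, the Treg factor gene Foxp3 with 127 FPKM with the Sox12 vector and 20.9 FPKM with the mock vector. Another 1 was at least 2 times lower, the surface receptor gene Cd5 with 81.7 FPKM with the Sox12 vector and 189 FPKM with the mock vector. The low values of the vector table are steps of single fragments. They gave about 48500000 fragments for the Sox12 vector library and about 46250000 for the mock vector library, so that in a transcript of 2 kb a level of 1 FPKM rested on 86.8 fragments with the Sox12 vector and 82.8 with the mock vector.

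Of the 9 genes, 8 were at least 2 times higher with the Sox12 vector and 1 was at least 2 times lower. Among all 10822 genes past the filter, 4.85% were that much higher and 1.91% that much lower. Since the genes were picked for this difference, their count says nothing beyond the choice. The changes of the 8 genes ran from 2.48 for Marcks to 7.10 for Cd24a, and the median over all 9 was 4.29, beside -0.01 over all genes past the filter. All 9 passed the filter, but Tmem98 and Dbn1 were below 1 FPKM with the mock vector and passed only through the Sox12 vector library.

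**Figure D1:**
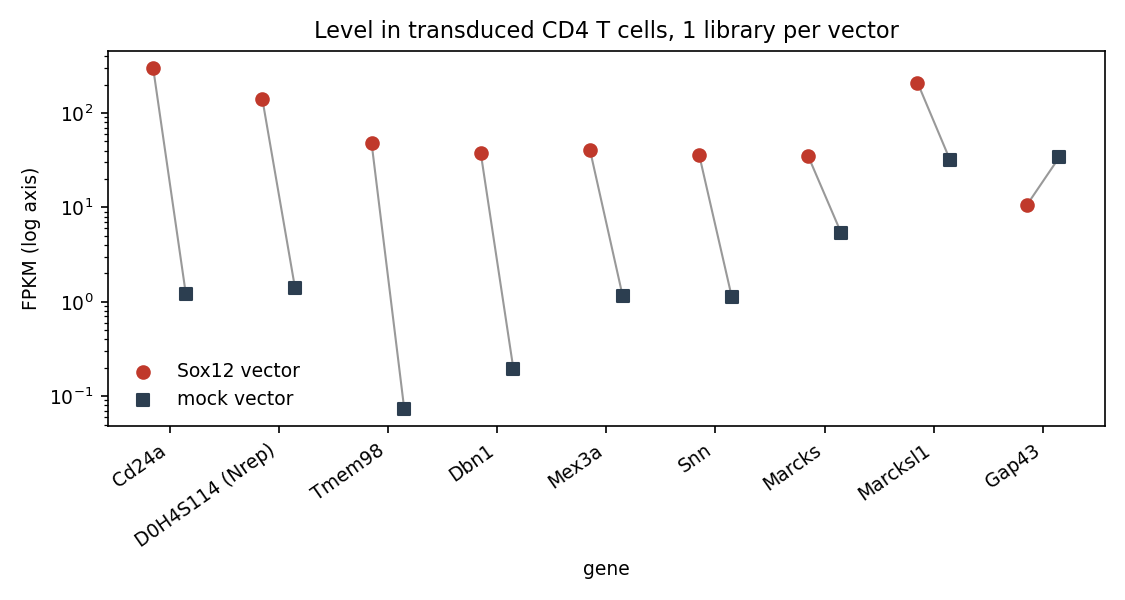
Level of each gene in FPKM on a log axis, with a red circle for the Sox12 vector library and a dark square for the mock vector library (1 library each, joined by a line). The circles stand above the squares for 8 genes, from Marcks (34.7 FPKM with the Sox12 vector, 5.40 FPKM with the mock vector) to Cd24a (301 FPKM with the Sox12 vector, 1.20 FPKM with the mock vector), and below for Gap43 alone.

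**Figure D2:**
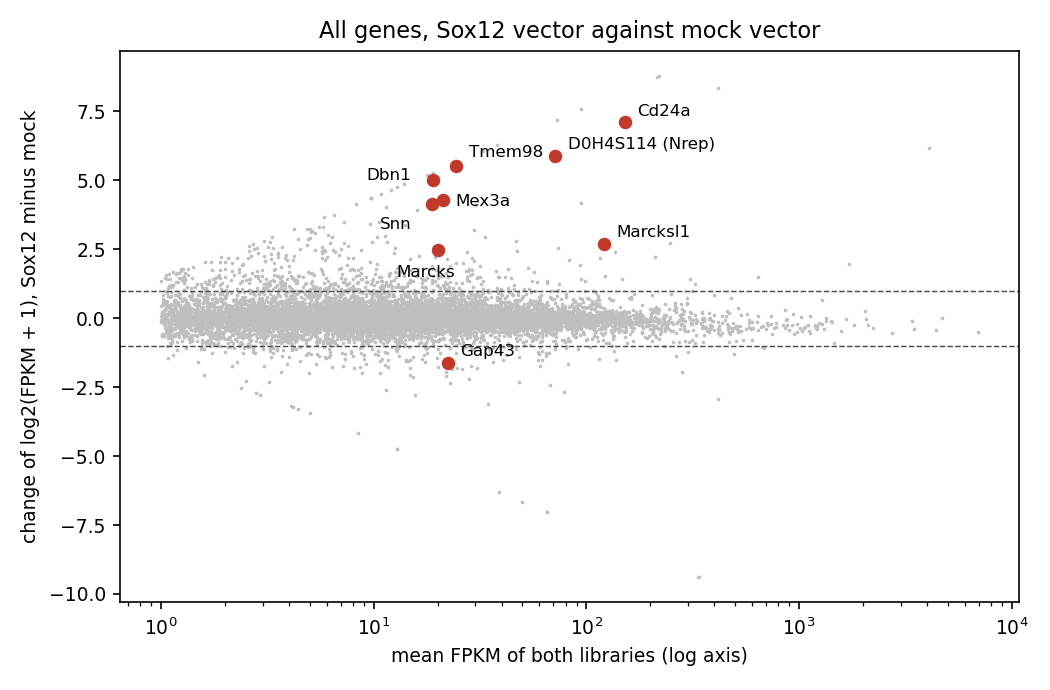
Each grey point is 1 of 10822 genes, by its mean FPKM over the Sox12 and mock vector libraries (log axis) and its change of log2(FPKM + 1), Sox12 minus mock, and red points are the 9 genes. Dashed lines mark a change of 1 in either direction, and 8 of the 9 lie above the upper line.

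The promoters of 5 of the genes (Tmem98, Dbn1, Mex3a, Snn and Marcksl1) were read from RefSeq sequence of GRCm38, another build than the mm9 of the authors, as 300 bases from 250 before to 50 after the RefSeq start of transcription. The promoter sequences used here have no entry for Cd24a, D0H4S114, Marcks and Gap43. The counts below therefore leave out Cd24a and D0H4S114, the genes of the set with the largest changes. The letters ACAAAG and ACAAT, on either strand, stand for the core that HMG boxes of Sox proteins bind; AACAAAG and AACAAT are longer forms that contain them. ACAAAG was found in 0 of the 5, beside 18.7% of all 32851 promoters in the table and 13.9% of the 9864 promoters of genes past the filter. ACAAT was found in 1 of the 5, that of Snn, beside 31% of all promoters and 20% of those of genes past the filter. The longer forms were found in 0 of the 5. For AACAAAG the share was 5.85% of all promoters and 3.96% of those of genes past the filter, and for AACAAT 10.7% and 5.57%. A match is only a match of letters, and sites farther from the start were not searched.

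The promoter of Snn is shown because it holds the match, marked by capitals and read on the other strand as ACAAT, with its first base 109 bases before the start (chr16:11066048-11066347, plus strand, GRCm38.p6).
Snn: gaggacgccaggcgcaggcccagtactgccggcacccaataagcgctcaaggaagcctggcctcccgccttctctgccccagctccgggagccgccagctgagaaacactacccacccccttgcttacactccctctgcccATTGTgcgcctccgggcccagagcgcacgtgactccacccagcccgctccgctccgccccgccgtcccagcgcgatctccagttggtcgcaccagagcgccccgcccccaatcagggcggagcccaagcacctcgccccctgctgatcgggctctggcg

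The promoters of Tmem98 (chr11:80810116-80810415, plus strand) and Dbn1 (chr13:55488027-55488326, minus strand) are shown because these genes were the lowest with the mock vector. Capitals mark each CG pair, the site of DNA methylation in mammals.
Tmem98: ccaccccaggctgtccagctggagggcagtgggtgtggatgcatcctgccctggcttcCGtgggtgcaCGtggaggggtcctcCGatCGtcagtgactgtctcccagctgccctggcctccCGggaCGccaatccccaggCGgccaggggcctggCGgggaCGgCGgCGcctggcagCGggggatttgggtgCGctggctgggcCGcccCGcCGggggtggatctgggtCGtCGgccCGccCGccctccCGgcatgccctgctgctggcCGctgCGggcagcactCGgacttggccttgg
Dbn1: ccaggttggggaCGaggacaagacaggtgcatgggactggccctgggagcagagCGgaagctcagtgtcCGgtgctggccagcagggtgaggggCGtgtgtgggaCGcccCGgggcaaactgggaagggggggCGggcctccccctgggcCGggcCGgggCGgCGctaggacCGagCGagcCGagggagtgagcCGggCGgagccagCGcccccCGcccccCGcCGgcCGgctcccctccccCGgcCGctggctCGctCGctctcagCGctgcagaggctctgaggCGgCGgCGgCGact

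The GC content of the 5 promoters ran from 63.0% for Mex3a to 76.7% for Dbn1, all above the median of 60.7% of promoters of genes past the filter and of 52.7% of all promoters. Dbn1 exceeded 95.2%, Tmem98 91.8% and Snn 83.4% of promoters of genes past the filter, while Marcksl1 at 61.1% and Mex3a at 58.8% were near the middle. The CG pairs numbered 30 in Dbn1, 25 in Snn, 24 in Tmem98, 22 in Marcksl1 and 20 in Mex3a, around the median of 21 for promoters of genes past the filter.

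The membrane proteins among them include the largest change of the 9, that of Cd24a, and the largest ratio, that of Tmem98. Cd24a encodes a small, heavily glycosylated surface protein on a lipid anchor, carried by immature thymocytes, B cells, red cell precursors, granulocytes and developing neurons. It had 301 FPKM with the Sox12 vector and 1.20 FPKM with the mock vector, a ratio of 251. Its level ranked 170 among all rows of the Sox12 vector library and 10436 in the mock vector library. Cd24a was thus an abundant transcript with the Sox12 vector and a scarce one with the mock vector.

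Tmem98 encodes a membrane protein that binds the myelin regulatory factor Myrf in oligodendrocytes. Behind its GC-rich promoter the gene had 48.7 FPKM with the Sox12 vector and 0.0728 FPKM with the mock vector, where the value rested on about 5 fragments. The ratio was 641 by fragment counts, with a 95% interval of 274 to 1975 that covers counting error only. Snn encodes stannin, a small protein of mitochondrial and other membranes that mediates the toxicity of trimethyltin to nerve cells. It had 36.4 FPKM with the Sox12 vector and 1.12 FPKM with the mock vector, a ratio of 32.6. The tail of Snn overlaps that of Txndc11 on the other strand, and Txndc11 had 12.9 FPKM with the Sox12 vector and 14.2 FPKM with the mock vector. Whether strand was used in the authors' quantification is not given in the sources used here.

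Dbn1 and the MARCKS genes act on cortical actin. Drebrin, the product of Dbn1, binds the sides of actin filaments in dendritic spines and gathers at the contact between a T cell and an antigen-presenting cell. Dbn1 had 37.9 FPKM with the Sox12 vector and 0.192 FPKM with the mock vector, a ratio of 197. The ubiquitous drebrin-like gene Dbnl had 57.9 FPKM with the Sox12 vector and 65.3 FPKM with the mock vector. Dbn1 thus made up 39.5% of the summed level of both drebrin genes with the Sox12 vector and 0.294% with the mock vector.

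Marcks and Marcksl1 encode myristoylated substrates of protein kinase C that bind the inner face of the plasma membrane, calmodulin and actin. Marcks had 34.7 FPKM with the Sox12 vector and 5.40 FPKM with the mock vector. Marcksl1 had 210 FPKM with the Sox12 vector and 31.5 FPKM with the mock vector. Their ratios were close, at 6.44 for Marcks and 6.68 for Marcksl1, with 95% counting intervals of 6.01 to 6.89 and 6.38 to 7.00 that overlap. The Marcksl1 level was 6.05 times that of Marcks with the Sox12 vector and 5.83 times with the mock vector, so both genes were higher with the balance between them about kept. RefSeq lists 5 pseudogenes of Marcksl1, of which 1 has a row (Marcksl1-ps4, at 0.148 FPKM with the Sox12 vector and 0 with the mock vector), and reads from the others may be counted under the parent gene or lost.

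Gap43 differed in the opposite direction. Its product is another protein kinase C substrate of the inner membrane, which binds calmodulin and is among the most abundant proteins of growth cones. Gap43 had 10.5 FPKM with the Sox12 vector and 34.2 FPKM with the mock vector, a change of -1.61 and a ratio of 0.308 (95% counting interval 0.281 to 0.337). With the mock vector it was the most abundant of the 9 genes, just above Marcksl1, and with the Sox12 vector the least abundant.

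The remaining genes regulate RNA and protein production. Mex3a encodes an RNA-binding protein with KH domains and a RING finger, known from stem cells of the intestine. It had 41.0 FPKM with the Sox12 vector and 1.15 FPKM with the mock vector, a ratio of 35.6. D0H4S114, or Nrep, encodes a short protein found in neurons and smooth muscle that is tied to axon regrowth and to TGF-beta production. It had 141 FPKM with the Sox12 vector and 1.39 FPKM with the mock vector, a ratio of 101.

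With the Sox12 vector the order of levels was Cd24a, Marcksl1, D0H4S114, Tmem98, Mex3a, Dbn1, Snn, Marcks and Gap43. The 5 genes from Tmem98 to Marcks lay between 48.7 and 34.7 FPKM. With the mock vector Gap43 and Marcksl1 came first, then Marcks, and a group of 4 genes (D0H4S114, Cd24a, Mex3a and Snn) lay between 1.39 and 1.12 FPKM, followed by Dbn1 and Tmem98. The spread of these levels over repeated libraries cannot be given.

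**Figure D3:**
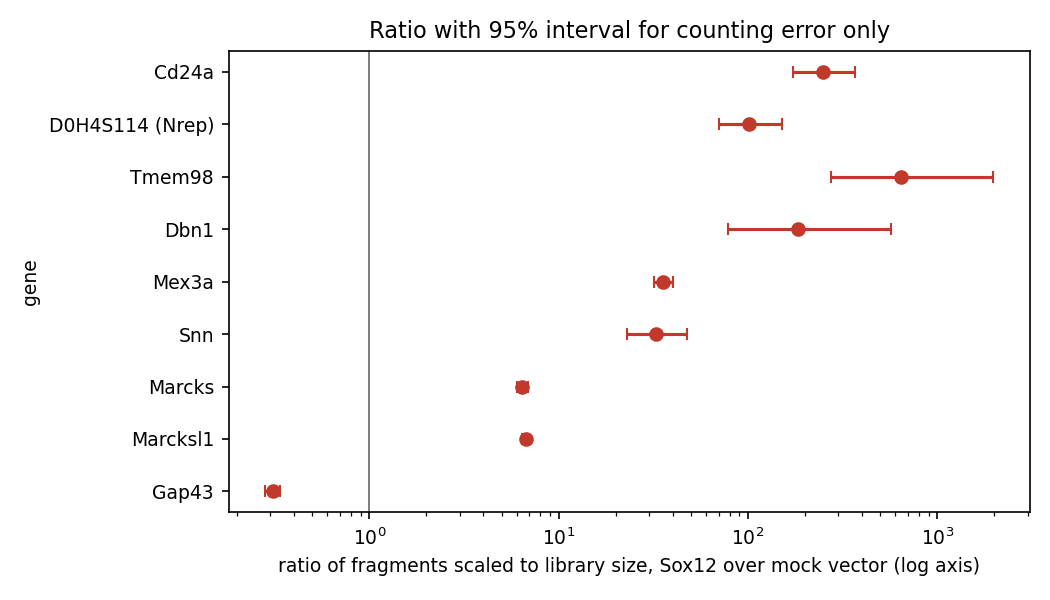
Ratio of fragments scaled to library size, Sox12 vector over mock vector (log axis), with the exact 95% interval for counting error only; fragments were estimated from FPKM, depth and the shortest coding transcript. Intervals are widest for Tmem98 and Dbn1, each estimated at about 5 fragments with the mock vector, and those of Marcks and Marcksl1 overlap. Dbn1 has 4 coding transcripts, so its estimate from the shortest is the lowest possible among them.

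Of the whole table, 24 genes had at most 2 FPKM with the mock vector and at least 20 FPKM with the Sox12 vector. Of these 12 were small RNAs, whose short length makes FPKM coarse, 6 were genes of the set (Cd24a, D0H4S114, Tmem98, Dbn1, Mex3a and Snn) and 1 was Sox12. The 10 with the largest change were Sox12, Cd24a, D0H4S114, Tmem98 and the small RNAs Snord52, Mir3064, Snord12, Snord45c, Mir704 and Mir1949. The other 5 of the 24 are named although their values were seen first. They were the neuronal tubulin Tubb3, the actin-bundling protein gene Fscn1, the matrix protease gene Mmp11, the pseudokinase gene Trib2, and Ctxn1, which encodes a neuronal membrane protein. The set was chosen on these same values, so its share of the 24 follows from the choice. With the same limits turned round, 8 genes were found, all of them small RNAs.

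Likeness to each gene was measured as the distance over both log2(FPKM + 1) values of the vector libraries, among genes with a proper name that are not small RNAs. The nearest to Dbn1 and to Tmem98 was Tubb3, which had 22.4 FPKM with the Sox12 vector and 0.425 FPKM with the mock vector, at distances of 0.78 and 1.16. Fscn1, with 30.8 FPKM with the Sox12 vector and 1.12 FPKM with the mock vector, was the nearest to Snn at 0.23 and to Mex3a at 0.40. Marcks was nearest to the kinase gene Sbk1 at 0.19 and Marcksl1 to the interferon-gamma gene Ifng at 0.41. Cd24a had no close neighbour, with Sox12 the nearest at 1.47, and D0H4S114 lay 1.38 from the granzyme gene Gzma. Gap43 lay 0.17 from Isg20, an interferon-induced nuclease gene that had 9.57 FPKM with the Sox12 vector and 37.0 FPKM with the mock vector. With 2 libraries this measure only says that levels were alike.

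Close relatives of the genes were read for comparison, since a family can differ within itself. Of 8 relatives 7 passed the filter, and 2 were at least 2 times higher, both of the Mex3 family. Among all genes past the filter 4.85% were that much higher. Mex3b had 13.7 FPKM with the Sox12 vector and 2.24 FPKM with the mock vector, and Mex3d had 10.7 FPKM with the Sox12 vector and 3.32 FPKM with the mock vector. Mex3c stood at 17.0 FPKM with the Sox12 vector and 17.6 FPKM with the mock vector. Mex3a thereby held 49.7% of the summed Mex3 level with the Sox12 vector and 4.74% with the mock vector.

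Among the relatives that resemble Gap43, Basp1, another abundant membrane-bound protein of growth cones, had 49.3 FPKM with the Sox12 vector and 29.3 FPKM with the mock vector, short of 2 times. Neurogranin (Nrgn), a calmodulin-binding protein of dendrites that shares the IQ motif of Gap43, had 20.9 FPKM with the Sox12 vector and 15.8 FPKM with the mock vector. Pcp4, a calmodulin-binding protein of Purkinje cells, was near 0 in both. Cd52, like Cd24a a short lipid-anchored glycoprotein of lymphocytes, had 441 FPKM with the Sox12 vector and 762 FPKM with the mock vector. The median change of the relatives was 0.38.

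Most genes of the wider neuronal lists were below 1 FPKM in both vector libraries. Of 20 cytoskeleton and growth cone genes with a row, 11 were below 1 FPKM in both libraries and 6 passed the filter, of which 2 were at least 2 times higher: Tubb3 and the neuronal kinesin gene Kif5c, which had 3.77 FPKM with the Sox12 vector and 0.617 FPKM with the mock vector. Dcx, the doublecortin gene of migrating neurons, was listed at 0 in both libraries. Tubb3 and Kif5c were below 1 FPKM with the mock vector and passed the filter only through the Sox12 vector library. Among all genes past the filter 4.85% were at least 2 times higher. The median change of the 6, with Tubb3 and Kif5c among them, was 0.42.

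Of 25 synaptic genes 16 were below 1 FPKM in both libraries. All 8 past the filter had a change below 0, where 48.9% of all genes past the filter had one above 0. Their median was -0.31. The smallest change in size was -0.02 for Syp, and the directions were not counted under other scalings. Of the 8, 1 was at least 2 times lower, beside 1.91% of all genes past the filter. It was Unc13a, a vesicle-priming factor, with 1.84 FPKM with the Sox12 vector and 4.73 FPKM with the mock vector. Only 1 of 22 adhesion and guidance genes passed the filter, the neural adhesion gene L1cam at 1.24 FPKM with the Sox12 vector and 2.67 FPKM with the mock vector. Of 29 neurogenic transcription factors and neuronal RNA-binding proteins 27 were below 1 FPKM in both libraries and 1 passed the filter, Hes6, at 17.0 FPKM with the Sox12 vector and 12.1 FPKM with the mock vector. The neuronal factor genes Neurog2 and Neurod1 were listed at 0 in both. The label neuronal is loose for the 9 genes, since Cd24a is also carried by blood cells and Mex3a is known from intestinal stem cells. Most other listed genes of neurons were below 1 FPKM in both libraries.

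Of the genes known as targets of Sox4 or Sox11, 4 were in the table. Only Tubb3 passed the filter, and it did so only through the Sox12 vector library. Prox1 had 0.247 FPKM with the Sox12 vector and 0.0110 FPKM with the mock vector. Tead2 had 0.411 FPKM with the Sox12 vector and 0.238 FPKM with the mock vector. Among 18 Sox genes Sox12 was the 1 called higher. Its relative Sox4 had 1.25 FPKM with the Sox12 vector and 1.76 FPKM with the mock vector, and Sox11 was listed at 0 in both.

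Transcripts of proteins that act on the MARCKS and Gap43 products were read next. Of 15 protein kinase C, calmodulin and calcineurin genes, all past the filter, 0 were at least 2 times higher or lower, while single changes ran from -0.68 for Prkcb to 0.84 for Prkcq, with a median of -0.05. The calmodulin gene Calm2 was among the most abundant, at 274 FPKM with the Sox12 vector and 216 FPKM with the mock vector. For comparison with these 15 and with the actin genes, the 2-times rule called 4.85% of all genes past the filter higher and 1.91% lower. Of 25 actin genes 23 passed the filter, with a median change of 0.00. Among the 23, 0 were called lower and 3 were at least 2 times higher. The 3 were Fscn1, the gelsolin gene Gsn (15.2 FPKM with the Sox12 vector, 5.49 FPKM with the mock vector) and Enah, an actin polymerization factor of growth cones (13.7 FPKM with the Sox12 vector, 6.27 FPKM with the mock vector).

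**Figure D4:**
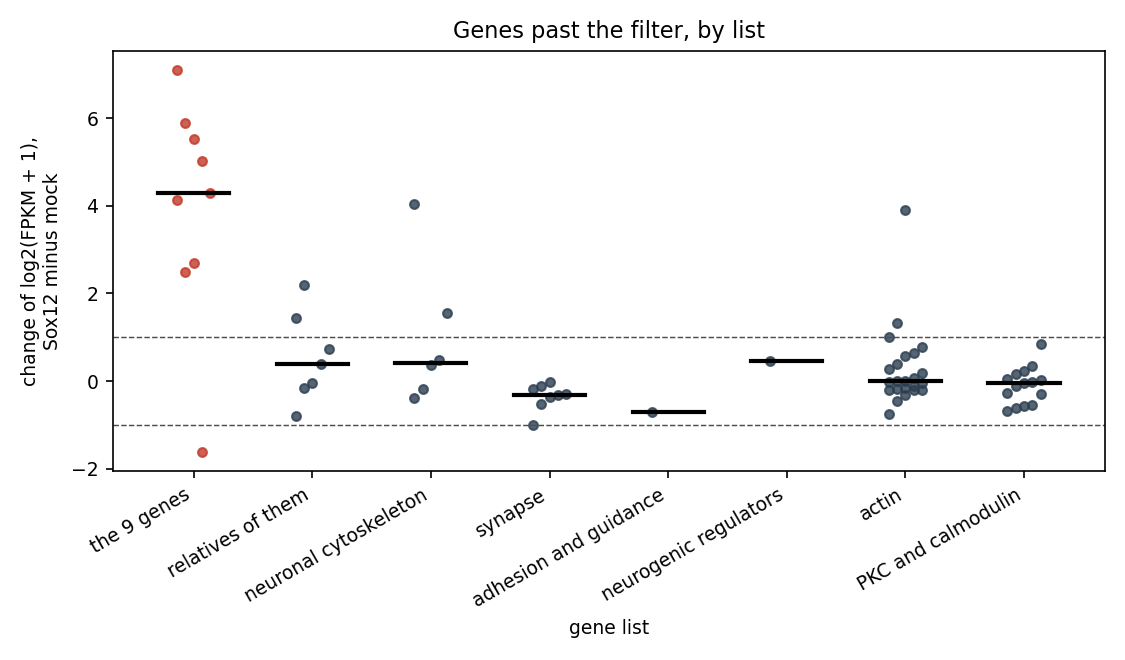
Change of log2(FPKM + 1), Sox12 vector minus mock vector, for each gene past the filter, by list, with a bar at the median; the 9 genes are red and were chosen on this very difference. Dashed lines mark a change of 1 in either direction. The synaptic genes all lie below 0, the highest of them at -0.02. The actin and PKC lists are centred near 0 apart from single genes such as Fscn1 at 3.91.

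Because Cd24a is carried by several other blood cells, and other genes of the set by glia, markers of such cells were read in the same libraries. In bulk RNA more cells of a type and more RNA per cell cannot be told apart. The 8 B cell markers summed to 3.75 FPKM with the Sox12 vector and 4.20 FPKM with the mock vector, and the 10 erythroid markers to 18.5 FPKM with the Sox12 vector and 52.7 FPKM with the mock vector. Most of the erythroid mock vector sum was Hbb-b1, with 9.27 FPKM with the Sox12 vector and 46.6 FPKM with the mock vector. Of the 3 erythroid markers past the filter 2 were lower with the Sox12 vector. The other 1, Hba-a1, was higher, with 4.23 FPKM with the Sox12 vector and 1.74 FPKM with the mock vector. Of 8 myeloid markers all were below 1 FPKM, with S100a8, S100a9, Elane and Camp at 0 in both libraries. The 6 markers of immature thymocytes summed to 13.4 FPKM with the Sox12 vector and 5.57 FPKM with the mock vector, all but a trace of it from the CD8 genes, while Rag1, Rag2 and Ptcra were at 0 in both. Cd8a was at least 2 times higher, with 5.58 FPKM with the Sox12 vector and 0.580 FPKM with the mock vector. Cd8a passed the filter only through the Sox12 vector library. Cd8b1 had 7.68 FPKM with the Sox12 vector and 4.80 FPKM with the mock vector, short of 2 times. Of 8 glial markers the 1 past the filter was Mbp, at 19.3 FPKM with the Sox12 vector and 28.6 FPKM with the mock vector, and Olig1 and Olig2 were at 0 in both. Fibroblast markers summed to 11.6 FPKM with the Sox12 vector and 6.21 FPKM with the mock vector, most of it Fbln1, and Col3a1 was at 0 in both. The part of such cells in the Cd24a level with the Sox12 vector was not tested.

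The DSS experiment was not used to choose the genes. Sox12 had 1.52 FPKM in DSS Treg and 0.715 FPKM in untreated Treg. Of the 4 genes with a row, 2 were higher and 2 lower in DSS Treg, and 0 were at least 2 times higher or lower. Among all 10545 genes past the filter there, 0.19% were at least 2 times higher, 0.0759% at least 2 times lower, and 66.1% had a change above 0. The median change of the 4 genes was 0.05, the same as that of all genes at 0.05.

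Cd24a had 111 FPKM in DSS Treg and 70.1 FPKM in untreated Treg, a ratio of 1.58 and a change of 0.65. Only 0.550% of genes had a higher change, which places Cd24a at rank 59. Beside it, all 10 erythroid markers with a row were higher in DSS Treg, with summed levels of 825 FPKM in DSS Treg and 548 FPKM in untreated Treg. The 5 myeloid markers with a row summed to 29.2 FPKM in DSS Treg and 20.2 FPKM in untreated Treg, and the 3 past the filter were higher in DSS Treg. The other 2 were lower: S100a8 had 0.678 FPKM in DSS Treg and 1.08 FPKM in untreated Treg, and S100a9 had 0.449 FPKM in DSS Treg and 1.19 FPKM in untreated Treg. B cell markers with a row, Cd79a and Cd79b, summed to 9.15 FPKM in DSS Treg and 8.67 FPKM in untreated Treg. The part of such cells in the Cd24a level was not tested.

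Snn had 2.59 FPKM in DSS Treg and 3.59 FPKM in untreated Treg, a change of -0.36. Only 1.49% of genes had a lower change, but how many fragments stand behind it is unknown, since the DSS table holds no values low enough to give the depth. Marcksl1 had 7.32 FPKM in DSS Treg and 8.07 FPKM in untreated Treg, a change of -0.12. Mex3a, at the edge of the level for listing, had 1.24 FPKM in DSS Treg and 0.911 FPKM in untreated Treg. The changes of Marcksl1 and Mex3a lay between the 5th and 95th percentiles of all genes past the filter, at -0.20 and 0.31. With 1 library per group the direction of the 4 genes in DSS Treg was not tested.

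**Figure D5:**
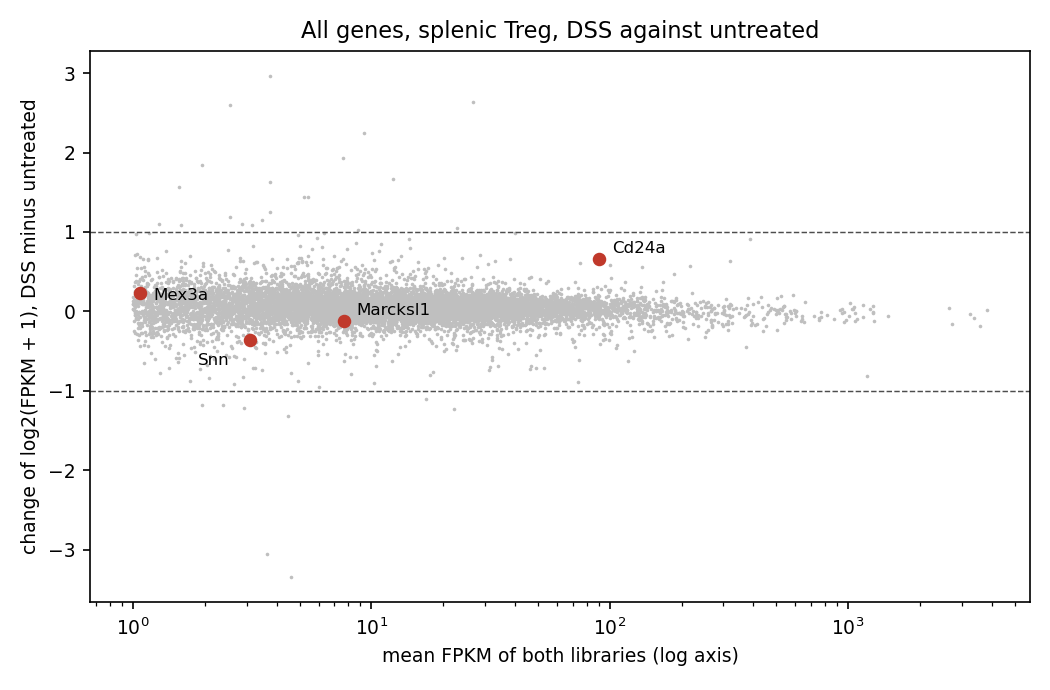
Each grey point is 1 of 10545 genes, by mean FPKM over the DSS and untreated Treg libraries (log axis) and its change of log2(FPKM + 1), DSS minus untreated; red points are the 4 genes with a row. All 4 lie between the dashed lines at a change of 1 in either direction, with Cd24a at 0.65 near the upper edge of the cloud for its level.

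The tables were normalized separately, so levels across them are only set side by side. Splenic Treg held Cd24a at 70.1 FPKM without treatment, between the 301 FPKM of the Sox12 vector library and the 1.20 FPKM of the mock vector library. Snn and Marcksl1 in untreated Treg, at 3.59 and 8.07 FPKM, were below their levels with the Sox12 vector. The relatives Mex3b, at 6.86 FPKM in DSS Treg and 6.07 FPKM in untreated Treg, and Mex3d, at 4.53 FPKM in DSS Treg and 3.30 FPKM in untreated Treg, were more abundant there than Mex3a.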

How the data were processed

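Total RNA was made into strand-specific libraries, per the labels. Cufflinks and mm9 are named in the submitters' processing notes, and no aligner, annotation or strand setting is given in the sources used here. The deposited DSS table holds FPKM and the authors' fold, a ratio of DSS to untreated FPKM. The deposited vector table holds log2(FPKM + 1) and its difference; values were turned back to FPKM. Rows with a date for a name (16 and 25) were left out. The pseudocount was 1 FPKM, the filter a mean of at least 1 FPKM. No test was run, since there is 1 library per group.

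Depth was the number of fragments, with a fragment length subtracted from transcripts, that made low FPKM values whole most often. Of 493 and 444 genes with a single GENCODE vM21 transcript in the Sox12 and mock vector libraries, 59.6% and 56.3% fell within 0.05 of a whole number, where an even spread gives 10%, at a fragment length of 210 bases. The recovery and the fold rule were tested on simulated data. Ratio intervals are exact binomial at 95%; for genes with several coding transcripts the shortest was used, which gives the widest interval.

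The 9 genes and the gene lists were chosen with earlier results of these data known. Named genes are the 9, Sox12, their relatives, up to 4 members per list past the fold or else the 2 most abundant, the nearest gene to each, and up to 10 genes at most 2 FPKM with the mock vector and at least 20 FPKM with the Sox12 vector; others, among them the genes given as at 0, below the filter or as examples of a list, were named after their values were seen. Some genes that this rule names are not reported here. Protein sequences were not used here. Alternatives were other pseudocounts, filters and scalings. Computations used Python 3.11.15, pandas 2.3.3, numpy 2.4.6 and scipy 1.17.1.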

Additional observations from a re-analysis of the deposited data

How the results depend on the processing

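Under 7 alternatives, chosen with earlier results known, the 9 genes kept their direction and their side of the 2-times rule in the vector experiment, as did the 4 with a row in the DSS experiment, except that Snn and Mex3a have no value there among genes of at least 5 FPKM. Their sizes depended on the pseudocount: the change of Tmem98 ran from 3.40 with 5 FPKM to 8.14 with 0.1 FPKM, that of Cd24a from 5.63 to 7.86, and the median of the 9 from 2.90 to 5.04. Of 264 values under alternatives 248 kept their call or stayed within 1.5 times of the reported count or percentage, and 16 did not. Among the 248, 3 neuronal cytoskeleton genes were higher without the filter, and 2 actin genes with 75th percentiles made equal. With a pseudocount of 5 FPKM 2.05% of all genes were higher and 0.869% lower, 1 relative, 1 neuronal cytoskeleton gene and 1 actin gene were at least 2 times higher, and 0 synaptic genes were lower. With a pseudocount of 0.1 FPKM 3.1% of all genes were lower, as was 1 adhesion and guidance gene. Without the filter 2.43% of all genes were higher and 0.911% lower, and 2 Sox genes and 1 neurogenic regulator were higher. Among genes of at least 5 FPKM on average, 1 neuronal cytoskeleton gene was higher, 0 synaptic genes were lower, and 1 of the 9 genes, Cd24a, had a change above 0 in DSS Treg, since Mex3a was below that level. With totals made equal without the 20 highest genes 0 synaptic genes were lower. No paired analysis was possible because each group has 1 library, so no library could be left out either. By fragments estimated from the shortest coding transcript, depth limits the ratios of Tmem98 and Dbn1 most. No depth could be had for the DSS libraries.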

Other observations

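The genes next to the 9 on the chromosome were read after the values of the 9 had been seen. Of 18 nearest coding genes by RefSeq order 17 have a row in the vector table and 10 passed the filter. Of these 1 was at least 2 times higher and 0 lower, beside 4.85% and 1.91% of all genes, and their median change was 0.08. The 1 was Lmna, the lamin A and C gene next to Mex3a, with 28.3 FPKM with the Sox12 vector and 10.5 FPKM with the mock vector. Hdac2, a histone deacetylase gene next to Marcks, had 131 FPKM with the Sox12 vector and 66.0 FPKM with the mock vector, a change of 0.98, while Hdac1, next to Marcksl1, had 129 FPKM with the Sox12 vector and 128 FPKM with the mock vector. Beside Cd24a, Qrsl1 had 6.29 FPKM with the Sox12 vector and 6.25 FPKM with the mock vector. Both neighbours of Tmem98 were below 1 FPKM: Myo1d had 0.341 FPKM with the Sox12 vector and 0.370 FPKM with the mock vector, and Spaca3 was listed at 0 in both.

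Of 96 genes in the 4 neuronal lists 80 were below the filter, and 52 of these were above 0 in both vector libraries. Of the 52, 21 had a ratio of 2 or more, Sox12 vector over mock vector, and in 9 the mock vector level was 2 or more times that with the Sox12 vector. The same count over all genes below the filter was not made, so no lean of these lists can be read from it. Some of these ratios rest on levels near 0, such as Ncam1 at 0.0138 FPKM with the Sox12 vector and 0.00463 FPKM with the mock vector. The genes named next were chosen after their values were seen. Msi1, the RNA-binding protein Musashi of neural progenitors, had 1.50 FPKM with the Sox12 vector and 0.0482 FPKM with the mock vector. Dpysl5, a growth cone protein of the collapsin response family, had 1.49 FPKM with the Sox12 vector and 0.0944 FPKM with the mock vector. Dclk1, a microtubule-binding kinase of neurons, had 0.512 FPKM with the Sox12 vector and 1.21 FPKM with the mock vector. Outside these lists, Sox5 had 1.47 FPKM with the Sox12 vector and 0.202 FPKM with the mock vector.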
